A study of Mus musculus with 6 samples.

Results

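The genes described here code for complement proteins, which tag and lyse microbes in blood and tissue, and for coagulation factors, which build and dissolve the fibrin clot. The list holds 48 mouse genes, 24 of each system, and a gene was taken as measured when the array annotation assigned probe sets to its symbol and to no other. That gave 737 probe sets of 45 genes, 23 of coagulation and 22 of complement, out of 229581 probe sets and 16277 genes on the array. The genes F9, Cfp and C5ar1 were not analysed here. Total RNA of liver was hybridised to 6 exon arrays (Affymetrix, mouse), on which most genes are covered by several short probe sets. The 3 WT arrays came from wild-type littermates matched for age, and the 3 SRSF3HKO arrays came from mice lacking the splicing factor SRSF3 in hepatocytes. All livers were taken at 1 month of age without treatment, and the labels do not name the Cre driver, the strain or the deleted exons.

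Most complement and coagulation proteins are made by hepatocytes and secreted into plasma. In the complement cascade, C1q (the classical pathway) or mannose-binding lectins (the lectin pathway) bind a surface and switch on serine proteases, which cleave C4 and C2 and then C3, while factor B and factor D drive the alternative pathway. The terminal components C5 to C9 then assemble into the membrane attack complex. In coagulation, tissue factor with factor VII and the contact system with factors XII and XI converge on factor X and thrombin, which turns fibrinogen into fibrin, and the protein C system, antithrombin and plasmin hold this in check.

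Array medians of the intensity ran from 75.3 to 89.6. Levels and changes below are on the log2(intensity + 16) scale, a gene's level is the median over its probe sets, and every change is SRSF3HKO minus WT with its SE and 3 arrays per group. A gene was tested when its mean over the arrays lay above a detection floor of 5.35, and it counts as changed when limma's p, adjusted over all 11711 tested genes, was under 0.05. The labels do not say whether the WT arrays represent different mice, and p-values reflect the spread among these arrays, which may be technical in part. Srsf3 itself had levels of 9.79, 9.24 and 9.35 on the WT arrays and 10.30, 9.10 and 9.78 on the SRSF3HKO arrays (change 0.26, limma adjusted p = 0.625), with 6 of its 13 tested probe sets higher, 3 with a negative change and none called lower. The deleted part is not given, so this gene level does not check the labels. Eif2s3y, a Y-linked gene, was detected on WT replicates 1 and 2 and SRSF3HKO replicate 3 and below the floor on the other arrays, an uneven split between the groups. The 11 measured hepatocyte markers were all detected with none called (median change -0.08, 8 negative and 3 positive), and Alb changed by -0.02. The dimmest of them, Serpina1a and Asgr1, had the largest falls, at -0.35 and -0.88 (limma adjusted p = 0.253 and 0.157). In whole liver, fewer cells of a type and less RNA per cell cannot be told apart.

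Expression of both systems was lower in SRSF3HKO liver, and the falls were largest at the end of the complement cascade. Of the 44 members tested, 16 fell and none rose, against 5.03% of all tested genes lower and 6.85% higher. These were 7 of 22 coagulation members and 9 of 22 complement members. A negative change was seen in 38 of the 44. In 31 members all SRSF3HKO arrays lay below all WT arrays, as did 14% of all tested genes, and in 6 members all lay above, as did 21.6% of all tested genes. The median change was -0.59 over coagulation and -0.71 over complement members, beside 0.08 over all tested genes. The lower quartile was -0.85 for coagulation and -1.62 for complement. On single SRSF3HKO arrays the coagulation median was -0.81, -0.41 and -0.46 relative to the WT mean and the complement median -0.83, -0.97 and -0.47. Members are not replicates, so the difference between the systems was not tested. The counts depended on single arrays. Without WT replicates 1, 2 and 3 the number of members that fell was 5, 6 and 8, as fewer genes passed in all. Of all tested genes 1.11%, 1.42% and 1.81% were lower in these fits. Without SRSF3HKO replicate 2 the number was 22, with 1 higher, beside 6.58% of all tested genes lower and 1383 genes higher. Of the 16 calls, 5 were kept in all 18 alternatives run (C9, C8b, C4b, Masp1 and Klkb1).

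**Figure D1:**
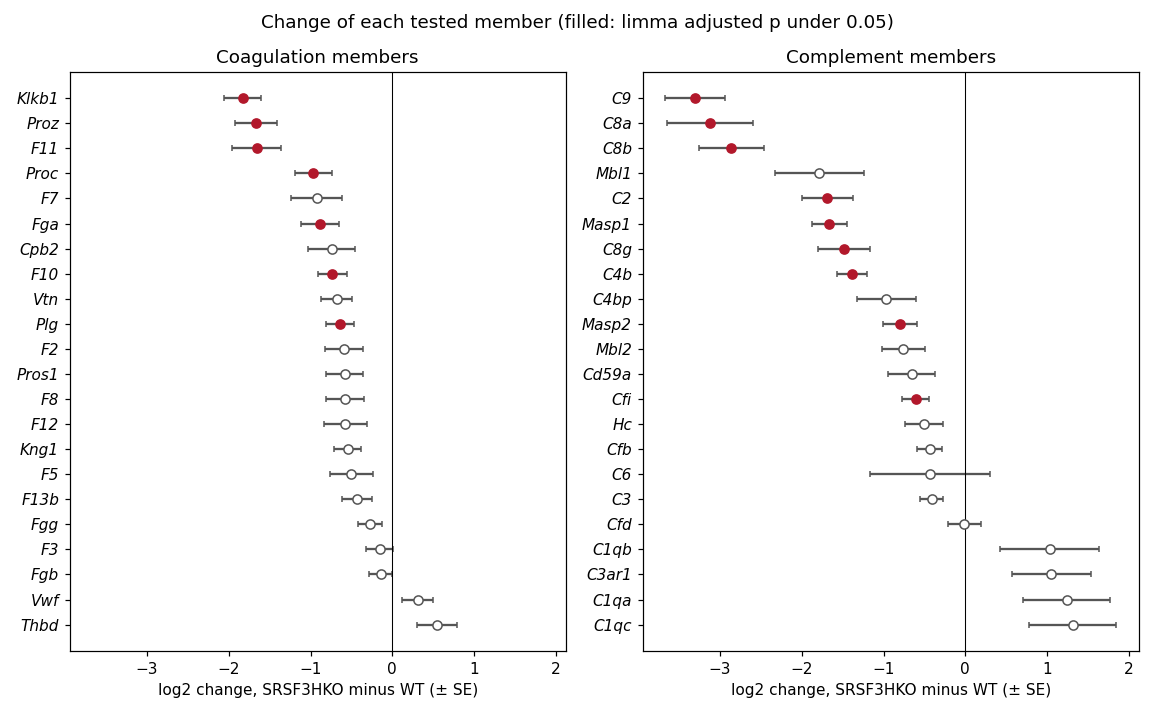
Log2 change of each tested member, SRSF3HKO minus WT, with coagulation members on the left and complement members on the right; points are the limma estimates, bars the SE with 3 arrays per group, and filled points the members with adjusted p under 0.05. All 16 filled points lie below 0, from C9 at -3.30 to Cfi at -0.61, and the 4 open points furthest above 0 are C1qc, C1qa, C3ar1 and C1qb.

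The terminal components held the largest falls of the list. C9, which polymerises into the pore of the membrane attack complex, had levels of 11.35, 11.49 and 10.77 on the WT arrays and 7.47, 7.50 and 8.73 on the SRSF3HKO arrays, 9.87-fold lower (change -3.30 ± 0.37, limma adjusted p = 0.00234). C8a codes for the alpha chain of C8, the component that C9 joins, and had levels of 12.03, 11.88 and 11.33 on the WT arrays and 9.26, 7.24 and 9.37 on the SRSF3HKO arrays (change -3.12 ± 0.53, 8.72-fold lower, limma adjusted p = 0.011). For both genes the lowest WT array lay well above the highest SRSF3HKO array, and WT replicate 3 was the lowest of the WT arrays. C8b, the beta chain gene, went from 12.05, 12.002 and 11.35 to 8.77, 8.21 and 9.84 (change -2.86 ± 0.40, 7.26-fold lower, limma adjusted p = 0.00568). C8g, whose product is a lipocalin bound to the alpha chain, went from 11.88, 11.78 and 11.85 to 9.84, 10.08 and 11.14 (change -1.49 ± 0.32, 2.80-fold lower, limma adjusted p = 0.0243). SRSF3HKO replicate 3 was the least reduced array for all 4 genes. The other terminal members did not pass the test. Hc, the gene of C5, had a change of -0.51 ± 0.23 (limma adjusted p = 0.194), with WT at 11.20, 10.94 and 11.60 and SRSF3HKO at 10.43, 10.83 and 10.96, so that the groups overlapped. C6, which joins C5b, varied more than any other member, from 7.15 to 8.81 in WT and from 6.70 to 9.44 in SRSF3HKO (change -0.43 ± 0.74, limma adjusted p = 0.744). Its sign turned without SRSF3HKO replicate 2 (0.033) or 3 (0.012). C8a lost its call when WT replicate 1 or 2 was left out (limma adjusted p = 0.0623 and 0.0691). C8g lost it when WT replicate 1, 2 or 3 was left out (limma adjusted p = 0.103, 0.0983 and 0.0859) and with a covariate for Y-linked signal (limma adjusted p = 0.0506).

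**Figure D2:**
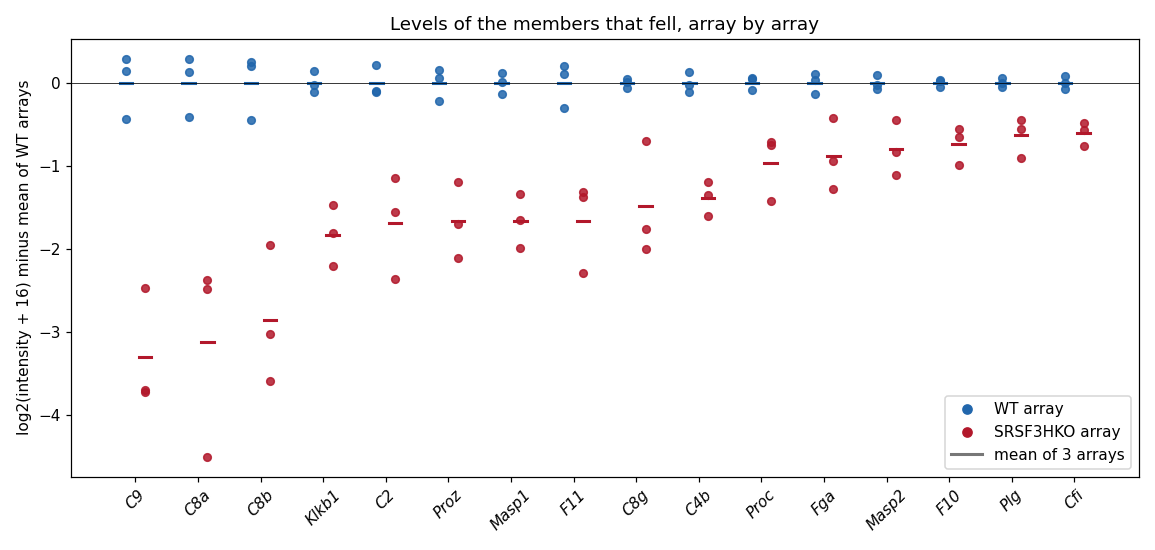
Levels of the 16 members that fell, drawn as log2(intensity + 16) minus the mean of the 3 WT arrays of that gene, with 1 point per array (blue WT, red SRSF3HKO) and a short line at each group mean. Every red point lies below every blue point of its gene; C9, C8a and C8b fell most.

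Promoter windows are shown for some of the genes that lie next to each other or in 1 complex and whose changes ran together or apart. They are C8a, C8b and C9, the neighbours F11 and Klkb1, which fell together, and the neighbours Fga and Fgb, of which Fga alone fell. The sequences are RefSeq's for GRCm38.p6 and cover the 250 bases before the transcript start, written 5′ to 3′ along the gene. Of the 45 measured members, 34 had at least 1 window. Capitals mark the motifs searched on both strands, which were the HNF1 motif GTTAAT, the HNF4 motif AAAGTCC, the C/EBP motif TTGCNNAA and the STAT motif TTCNNNGAA. No matches overlapped in the windows printed. The C8a window is chr4:104876399-104876648 on the minus strand, that of C8b chr4:104766067-104766316 on the plus strand and that of C9 chr15:6445096-6445345 on the plus strand.
C8a: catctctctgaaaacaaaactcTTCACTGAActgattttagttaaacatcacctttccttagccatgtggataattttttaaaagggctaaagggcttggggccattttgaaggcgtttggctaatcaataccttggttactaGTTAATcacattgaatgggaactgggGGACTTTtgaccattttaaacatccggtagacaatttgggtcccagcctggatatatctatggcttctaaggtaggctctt
C8b: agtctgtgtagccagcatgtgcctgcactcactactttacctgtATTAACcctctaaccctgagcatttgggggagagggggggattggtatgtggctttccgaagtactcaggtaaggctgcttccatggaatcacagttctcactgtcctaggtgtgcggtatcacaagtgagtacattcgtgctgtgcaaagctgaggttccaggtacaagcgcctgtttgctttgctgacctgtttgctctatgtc
C9: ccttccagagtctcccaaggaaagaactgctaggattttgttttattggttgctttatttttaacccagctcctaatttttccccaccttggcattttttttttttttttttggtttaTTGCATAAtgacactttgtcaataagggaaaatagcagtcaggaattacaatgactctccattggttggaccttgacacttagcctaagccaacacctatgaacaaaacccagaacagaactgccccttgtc
The F11 window is chr8:45262032-45262281 on the minus strand and the Klkb1 window chr8:45294836-45295085 on the minus strand.
F11: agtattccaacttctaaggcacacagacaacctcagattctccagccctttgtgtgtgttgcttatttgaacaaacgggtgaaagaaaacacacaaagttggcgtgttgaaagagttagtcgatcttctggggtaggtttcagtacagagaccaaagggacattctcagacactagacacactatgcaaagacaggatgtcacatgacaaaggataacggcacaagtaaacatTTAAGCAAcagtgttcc
Klkb1: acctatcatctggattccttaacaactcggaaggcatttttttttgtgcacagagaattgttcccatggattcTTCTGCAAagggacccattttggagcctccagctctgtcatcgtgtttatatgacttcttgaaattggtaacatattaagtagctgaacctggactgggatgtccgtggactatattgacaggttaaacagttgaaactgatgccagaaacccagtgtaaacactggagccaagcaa
The Fga window is chr3:83025903-83026152 on the plus strand and the Fgb window chr3:83049864-83050113 on the minus strand.
Fga: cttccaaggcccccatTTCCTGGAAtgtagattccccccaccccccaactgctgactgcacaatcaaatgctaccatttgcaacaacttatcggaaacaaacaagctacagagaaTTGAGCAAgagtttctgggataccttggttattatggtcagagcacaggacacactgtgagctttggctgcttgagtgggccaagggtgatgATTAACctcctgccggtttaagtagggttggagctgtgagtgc
Fgb: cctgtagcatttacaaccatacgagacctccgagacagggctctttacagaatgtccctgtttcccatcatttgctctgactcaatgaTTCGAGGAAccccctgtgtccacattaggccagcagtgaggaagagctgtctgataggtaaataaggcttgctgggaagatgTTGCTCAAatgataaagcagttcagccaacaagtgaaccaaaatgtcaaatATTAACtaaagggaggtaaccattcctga
The windows of C8a and C8b each held an HNF1 motif, with an HNF4 and a STAT motif besides in C8a, and those of C9, F11 and Klkb1 a C/EBP motif. Fga and Fgb each held an HNF1 motif, a C/EBP motif and a STAT motif, although their changes differed in size. Other neighbours or parts of a complex had windows that are not printed. Those of C8g, Fgg, F7, F10, C6, C1qb and C1qc held none of these motifs, and those of Proz and Hc each held an HNF1 motif. Counted by gene, over all windows of a gene, the HNF1 motif was found for 4 of 10 members that fell, for 5 of 24 other members and for 7.49% of 27025 genes with a window. The C/EBP motif was found for 4 of 10 and 2 of 24 (10.8% of all), the STAT motif in 3 of 10 and 2 of 24 (8.13% of all), and the HNF4 motif in 1 of 10 and 1 of 24 (4.15% of all). A match is a description of the letters and not a site of binding.

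The classical and lectin pathways fell at their proteases and at C4 and C2. C4b, which codes for C4, had levels of 11.20, 10.96 and 11.04 on the WT arrays and 9.87, 9.71 and 9.47 on the SRSF3HKO arrays (change -1.38 ± 0.19, limma adjusted p = 0.00485). These arrays formed tight groups that did not overlap. The 31 probe sets shared by C4b and its near-identical neighbour C4a, which did not enter the gene level, were all called lower as well (median change -1.43), so the share of each copy is uncertain. C2, the protease that C4b holds in the C3 convertase, went from 9.16, 8.83 and 8.83 to 7.79, 6.58 and 7.38 (change -1.69 ± 0.31, limma adjusted p = 0.0148). C2 was not called when WT replicate 1, 2 or 3 was left out (limma adjusted p = 0.0792, 0.0705 and 0.0542). Masp1, a protease of the lectin pathway, had levels of 10.17, 10.06 and 9.92 on the WT arrays and 8.71, 8.06 and 8.40 on the SRSF3HKO arrays (change -1.66 ± 0.22, limma adjusted p = 0.00438). Masp2, the protease that cleaves C4 and C2 in that pathway, fell by a smaller amount, from 10.73, 10.79 and 10.91 to 9.98, 9.70 and 10.36 (change -0.80 ± 0.21, limma adjusted p = 0.0454), and lost its call in 8 of 18 alternatives, the highest limma adjusted p being 0.153. The recognition lectins did not pass the test although their groups did not overlap. Mbl1 had a change of -1.78 ± 0.54 (limma adjusted p = 0.0685), with WT at 10.32, 10.22 and 10.06 and SRSF3HKO at 9.06, 6.95 and 9.25, and Mbl2 a change of -0.76 ± 0.26 (limma adjusted p = 0.0974). SRSF3HKO replicate 2 was the lowest array for Mbl1 by more than 2 log2 units.

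None of the tested members of C3 and the alternative pathway passed the test. C3, the central component, had levels of 13.29, 13.31 and 13.43 on the WT arrays and 12.93, 12.86 and 13.02 on the SRSF3HKO arrays (change -0.41 ± 0.14, limma adjusted p = 0.0969). Cfb, the protease of the alternative C3 convertase, had a change of -0.43 ± 0.15 (limma adjusted p = 0.103) and passed with the mean or median polish over probe sets. Both had groups that did not overlap. Cfd, the protease that activates factor B and is made mainly by fat cells, had low levels, from 5.74 to 6.27, with a change of -0.01 ± 0.20 (limma adjusted p = 0.973), whose sign turned in 5 alternatives. The 5 measured fat cell markers had a summed intensity of 121.2 to 162.1 in WT and 1565 to 2039 in SRSF3HKO. Most of the SRSF3HKO sum was Cidec alone, at levels of 10.93, 10.63 and 10.51. Of the 3 tested, Cidec, a lipid droplet gene, rose (5.81 ± 0.26, limma adjusted p = 8.66e-05), Plin1 (-0.32) and Retn (0.30) did not pass, and the defining markers Adipoq and Lep were below the floor in their mean. The part of fat cells in the Cfd values was not tested. Among the inhibitors, Cfi, the protease that cleaves C3b and C4b, fell from 12.08, 11.99 and 11.92 to 11.23, 11.42 and 11.51 (change -0.61 ± 0.16, limma adjusted p = 0.0464). This was the smallest fall that passed, and it was lost in 12 of 18 alternatives, the highest limma adjusted p being 0.186. C4bp, a cofactor of factor I, had a change of -0.97 ± 0.36 (limma adjusted p = 0.122), with SRSF3HKO replicate 2 at 9.85 and the other SRSF3HKO arrays at 11.28 and 11.25. Cd59a, a membrane inhibitor of the pore, had a change of -0.66 ± 0.29 (limma adjusted p = 0.178) and overlapping groups.

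The C1q chains and the C3a receptor went the other way, and 1 array carried most of the difference. These genes are expressed by macrophages rather than by hepatocytes. C1qa was at 8.66, 8.24 and 8.11 in WT and 10.98, 8.85 and 8.89 in SRSF3HKO (change 1.24 ± 0.53, limma adjusted p = 0.165). C1qb (1.03 ± 0.60, limma adjusted p = 0.297), C1qc (1.31 ± 0.53, limma adjusted p = 0.144) and C3ar1 (1.05 ± 0.48, limma adjusted p = 0.189) had the same pattern. All SRSF3HKO arrays lay above all WT arrays for the 4 genes. SRSF3HKO replicate 1 stood 2.64, 2.70, 2.74 and 2.32 above the WT mean for C1qa, C1qb, C1qc and C3ar1, whereas without it their changes were 0.54, 0.20, 0.60 and 0.42. C1qc passed without SRSF3HKO replicate 2 (limma adjusted p = 0.0375) and with array weights (limma adjusted p = 0.0437). Most macrophage markers moved with them on that array, but Cx3cr1 did not (5.37 against 5.92, 6.13 and 5.48 in WT). The summed intensity of the 15 measured macrophage markers was 2777 to 3207 in WT, 18330 in SRSF3HKO replicate 1, 2986 in replicate 2 and 3422 in replicate 3. Of the 14 tested, 3 rose (Cd14, Marco and Trem2) and none fell, beside 6.85% of all tested genes higher and 5.03% lower. Marco was highest on SRSF3HKO replicate 1, Cd14 on replicate 2 (8.17 against 7.43 on replicate 1) and Trem2 on replicate 3 (6.59 against 6.53). Changes were positive in 12 of the 14 and negative in 2 (Cx3cr1, -0.99, and Timd4, -0.08). The median change over the 14 was 0.62, and -0.25 without SRSF3HKO replicate 1. Ccr2 alone was below the floor. Neutrophil markers, of which 4 of 10 measured were tested and none passed, stood 1.84 above the WT mean in median on the same array and by less than 0.1 on the other SRSF3HKO arrays. The part of these cells in the C1q values was not tested.

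**Figure D3:**
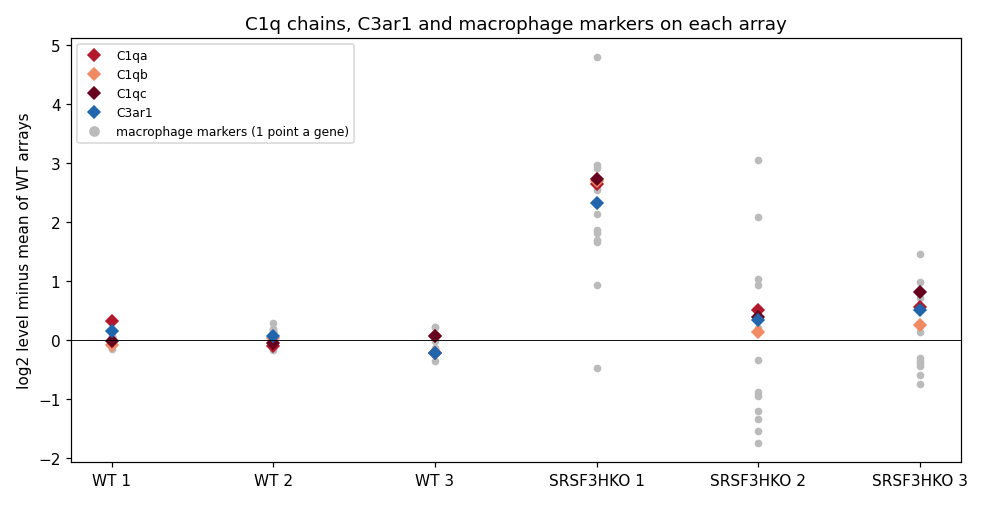
Levels of C1qa, C1qb, C1qc and C3ar1 (diamonds) and of the 14 tested macrophage markers (grey points) on each of the 6 arrays, as log2(intensity + 16) minus the mean of the WT arrays of that gene. SRSF3HKO replicate 1 carries the 4 members at 2.32 to 2.74, and the diamonds of the other SRSF3HKO arrays lie between 0 and 1.

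In coagulation, the largest falls were in the contact system and in protein Z. Klkb1 codes for plasma prekallikrein, which activates factor XII and releases bradykinin, and had levels of 11.02, 10.77 and 10.85 on the WT arrays and 8.67, 9.07 and 9.41 on the SRSF3HKO arrays (change -1.83 ± 0.23, 3.56-fold lower, limma adjusted p = 0.00362). F11, the gene of factor XI, went from 10.18, 10.09 and 9.68 to 8.67, 7.69 and 8.61 (change -1.66 ± 0.30, 3.16-fold lower, limma adjusted p = 0.0133). Both groups of arrays stood apart by over 1 log2 unit, although F11 was not called when WT replicate 1 or 2 was left out (limma adjusted p = 0.0756 and 0.076). F12, whose product starts the contact system, had a change of -0.58 ± 0.26 with overlapping groups (limma adjusted p = 0.190). Kng1, the gene of high molecular weight kininogen, had a change of -0.54 ± 0.17 (limma adjusted p = 0.0692) and groups that did not overlap. The mouse also has Kng2, a similar gene that was not analysed here, and these probe sets may pick up both copies. Proz, a cofactor for the inhibition of factor Xa, had levels of 10.94, 10.66 and 11.04 on the WT arrays and 9.17, 8.77 and 9.69 on the SRSF3HKO arrays (change -1.67 ± 0.26, 3.18-fold lower, limma adjusted p = 0.00839). Proz was not called when WT replicate 1 was left out (limma adjusted p = 0.054).

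Among the other vitamin K-dependent factors, F10 and Proc fell, and F2, F7 and Pros1 did not pass the test. F10, the gene of factor X, went from 12.13, 12.13 and 12.05 to 11.45, 11.11 and 11.55 (change -0.73 ± 0.18, limma adjusted p = 0.0345). Proc, which codes for the anticoagulant protein C, went from 11.55, 11.54 and 11.41 to 10.07, 10.75 and 10.79 (change -0.96 ± 0.23, limma adjusted p = 0.0321). Neither was called when any single WT array was left out or with a covariate for Y-linked signal (limma adjusted p from 0.0931 to 0.137 for F10 and from 0.0828 to 0.128 for Proc). F2, the prothrombin gene (-0.59 ± 0.23, limma adjusted p = 0.139), F7, the partner of tissue factor (-0.93 ± 0.32, limma adjusted p = 0.0958), and Pros1, the cofactor of protein C (-0.58 ± 0.23, limma adjusted p = 0.138), did not pass although their groups did not overlap. Cofactors F5 (-0.50 ± 0.26) and F8 (-0.58 ± 0.23) had limma adjusted p of 0.244 and 0.143. SRSF3HKO replicate 2 was at the WT level for F5, with 11.02 against 10.98, 11.01 and 11.02. The tissue factor gene F3 was near the floor and changed by -0.16 (limma adjusted p = 0.588).

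The 3 chains of fibrinogen had gene-level changes of unequal size. Fga, the alpha chain gene, had levels of 12.79, 12.96 and 13.04 on the WT arrays and 11.65, 12.51 and 11.99 on the SRSF3HKO arrays (change -0.88 ± 0.23, limma adjusted p = 0.0429), and lost its call in 8 of 18 alternatives, the highest limma adjusted p being 0.150. The beta chain gene Fgb, at 13.28, 13.36 and 13.28 against 13.12, 13.24 and 13.14, changed by -0.14 ± 0.14 (limma adjusted p = 0.534), and the gamma chain gene Fgg by -0.28 ± 0.15 (limma adjusted p = 0.255). The groups did not overlap in any of the 3 chains, and the difference between chains was not tested. Brighter probe sets tended to change less in each chain. Spearman's rho between WT intensity and change was 0.75 in Fga (7 probe sets), 0.48 in Fgb (15) and 0.82 in Fgg (10). Probe set changes ran from -1.35 to -0.52, from -0.26 to -0.05 and from -0.89 to -0.19, and the part of brightness was not tested. F13b, the carrier subunit of the fibrin-stabilising factor XIII, changed by -0.44 ± 0.18 (limma adjusted p = 0.157). Its catalytic subunit gene F13a1, expressed by macrophages and platelets, was below the floor on every array and was not tested. In fibrinolysis, Plg, the plasminogen gene, went from 12.71, 12.83 and 12.76 to 11.86, 12.21 and 12.32 (change -0.64 ± 0.17, limma adjusted p = 0.0492). This call lay at the threshold and was lost in 13 of 18 alternatives, the highest limma adjusted p being 0.166. Cpb2, an inhibitor of fibrinolysis, changed by -0.74 ± 0.29 (limma adjusted p = 0.130), and Vtn, the vitronectin gene, by -0.68 ± 0.19 (limma adjusted p = 0.0561).

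Vwf and Thbd, which endothelium expresses, were the coagulation members with a positive change, and neither passed the test. Vwf, which carries factor VIII and tethers platelets, had levels of 6.26, 6.13 and 6.28 on the WT arrays and 6.47, 6.79 and 6.33 on the SRSF3HKO arrays (change 0.31 ± 0.19, limma adjusted p = 0.313). Thbd, the thrombin receptor that turns on protein C, had 6.54, 6.14 and 6.72 in WT and 7.41, 6.89 and 6.74 in SRSF3HKO (change 0.55 ± 0.25, limma adjusted p = 0.187). The highest WT array was within 0.1 of the lowest SRSF3HKO array in both. F8, which liver endothelium also makes, had a negative change (-0.58), as given above. Of 14 endothelial markers 1 fell (Kdr, -0.87 ± 0.23, limma adjusted p = 0.0452), beside 5.03% of all tested genes, and their median change was -0.38. Their summed intensity was 4072 to 5555 in WT and 2735 to 5124 in SRSF3HKO, with none below the floor. Platelet and megakaryocyte markers rose in 1 of 6 tested genes (Pf4), and 2 of the 8 measured were below the floor. Among markers of other liver cells, 2 of 12 tested stellate cell and fibroblast genes fell (Col3a1, -1.41, and Ngfr, -0.83). In this list 5 changes were positive and 7 negative. Of 7 tested cholangiocyte genes 1 rose (Prom1, 2.36), with 6 positive and 1 negative change, and none of 4 tested lymphocyte genes passed. The platelet list had 4 positive and 2 negative changes. These counts stand beside 5.03% of all tested genes lower and 6.85% higher. The part of these cells in the values was not tested.

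Other genes of the same systems fell in the same liver. Of 27 tested genes of coagulation outside the member list, 8 fell and none rose, with a median change of -0.23, beside 5.03% of all tested genes lower and 6.85% higher. They were Hgfac, a relative of factor XII that activates hepatocyte growth factor (-2.34 ± 0.17, limma adjusted p = 0.000532), the protease inhibitor gene Pzp (-1.15), Serping1, the inhibitor of C1 and kallikrein (-1.37), the protease gene Habp2 (-1.11), Serpinf2, the plasmin inhibitor (-0.83), Serpind1, heparin cofactor II (-1.20), Ggcx, the vitamin K-dependent carboxylase (-1.17 ± 0.23, limma adjusted p = 0.0179), and Lman1, the cargo receptor for factors V and VIII (-0.78). Ggcx makes F10, Proc and Proz products functional, and its groups did not overlap. Serpinc1, the antithrombin gene (-0.23), and Vkorc1, which recycles vitamin K (-0.26), did not pass (limma adjusted p = 0.438 and 0.445). Of 18 tested complement genes outside the list, 4 fell and none rose, with a median change of -0.42, against the same shares of all tested genes. They were Cpn1, a peptidase that inactivates C3a and C5a (-1.71 ± 0.20, limma adjusted p = 0.00266), and the C1 proteases C1s2 (-1.99), C1s1 (-1.85) and C1ra (-1.80 ± 0.32, limma adjusted p = 0.0129). The proteases of C1 were called lower and its C1q chains were not called. C1s1 and C1s2 are similar copies, so their shares are uncertain.

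Of 16 tested transcription factors of liver, 4 fell and none rose, with a median change of -0.58, again beside 5.03% lower and 6.85% higher over all tested genes. They were Esr1 (-1.08), Cebpa (-1.48 ± 0.33, limma adjusted p = 0.0263), Rxra (-0.77) and Ppara (-0.93). Cebpa codes for the C/EBP protein of mature hepatocytes. Hnf4a, a central hepatocyte factor, did not pass (-0.18 ± 0.20, limma adjusted p = 0.585), and nor did Cebpb (-0.06, limma adjusted p = 0.855). Of the STAT genes tested, Stat3 (0.11), Stat5a (-0.51) and Stat5b (-0.49) did not pass either (limma adjusted p = 0.862, 0.211 and 0.165). No HNF1 gene was among the 16.

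Members that lie next to each other in the RefSeq gene order, with no protein-coding gene between them, showed both like and unlike changes. C8a and C8b, neighbours on chromosome 4, changed by -3.12 and -2.86, and F11 and Klkb1, neighbours on chromosome 8, by -1.66 and -1.83. Along the row of F7, F10 and Proz, also on chromosome 8, the changes were -0.93, -0.73 and -1.67. C2 and Cfb, neighbours on chromosome 17, differed, at -1.69 and -0.43, as did Fga, at -0.88, and its neighbours Fgg, at -0.28, and Fgb, at -0.14.

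Arrays with and without Y-linked signal gave changes of like sign for all 16 members that fell. Within the 2 WT and 1 SRSF3HKO arrays with the signal the change was -2.69 for C9, -2.59 for C8a, -2.19 for C8b and -1.49 for Klkb1, and among those lacking it, 1 WT and 2 SRSF3HKO arrays, it was -3.28, -3.08, -2.86 and -1.98. The values with and without the signal were -0.69 and -1.90 for C8g and -0.40 and -1.07 for Masp2. Among members that did not pass they were -1.77 and 0.92 for C6, 0.06 and -1.35 for Cd59a, -0.11 and -1.54 for F7, and -0.10 and -1.31 for Mbl2. With a covariate for the signal 9 members fell, 3 of coagulation and 6 of complement, beside 2.59% of all tested genes. Each subset has a single array of 1 genotype (SRSF3HKO replicate 3 with the signal, WT replicate 3 without), so the signal and the deviation of that array cannot be told apart.

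The gene levels are medians over single probe sets, so the counts below describe the same measurements and add no independent evidence. Of the 700 member probe sets bright enough to test, 208 were lower and 2 higher, against 4.32% and 4.73% of all 157764 tested probe sets, and 625 had a negative change. The 2 that rose belong to Vwf, out of 53 tested. In the 16 members that fell, 236 of 237 tested probe sets had a negative change and 173 were called. C8a (16 of 16), C8b (17 of 17), C8g (7 of 7) and Klkb1 (18 of 18) were called in every tested probe set, and C9 in 13 of 14. The 3 probe sets that Klkb1 shares with Cyp4v3 are not among its 18, and 1 of them was called lower (median change -0.58, beside -1.83 for the Klkb1 gene level). Between genes the spread differed, with changes of -3.34 to -2.32 over the probe sets of C8a and -2.62 to -0.28 over those of Masp1.

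SRSF3 acts on splicing, so the use of each probe set relative to the rest of its gene was compared as well. By limma's diffSplice 8 of 698 member probe sets changed in usage, against 0.662% of all tested probe sets, in 5 genes (C3, C9, Proz, Masp1 and Cfi), against 5.81% of all genes by Simes' method. In each of the 5 genes the probe sets called were the dimmest of the gene. Unlike the p-values of gene levels, those of diffSplice pool the spread over all probe sets of a gene, which share the same arrays. They therefore count these probe sets as separate measurements. C3 had the lowest diffSplice p among the members. Its probe set 4877213 had intensities of 5046, 4310 and 4943 on the WT arrays and 1933, 2489 and 2057 on the SRSF3HKO arrays (usage change -0.72, diffSplice adjusted p = 1.33e-08). This call was kept in every alternative run with diffSplice, but not with a splicing index computed on each array (-0.73 ± 0.18, limma adjusted p = 0.239). Probe sets 5284925 (4408, 4461 and 5304 against 2408, 2244 and 2885, usage change -0.48, diffSplice adjusted p = 0.000584) and 4836556 (5385, 5326 and 6201 against 2564, 3377 and 3477, usage change -0.42, diffSplice adjusted p = 0.00495) had the same direction. The groups did not overlap in any of these 3. The 43 probe sets of C3 ran from 4724 to 13918 in mean WT intensity, and their changes from -1.14 to -0.11, with brighter probe sets changing less (Spearman's rho = 0.65 across 43 probe sets of 1 gene on shared arrays, a description). The same measure was 0.83 over 23 probe sets of Kng1, 0.82 over 10 of Fgg, 0.91 over 13 of Cpb2 and 0.90 over 9 of Mbl2, but -0.17 over 16 of C8a and -0.04 over 17 of C8b. The part of brightness in the changes of these genes was not tested.

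In the other 4 genes the called probe sets were higher in usage, as they fell less than the rest of the gene or, in Cfi, had a positive change. C9 probe set 4478007 had intensities of 64.1, 52.1 and 45.6 on the WT arrays and 30.4, 23.3 and 60.8 on the SRSF3HKO arrays (usage change 2.55, diffSplice adjusted p = 0.000305), while the other 13 tested probe sets of C9 had a median change of -3.10 and a median WT intensity of 2992. Probe set 5408234 of C9 (1.70, diffSplice adjusted p = 0.0426), 4663360 of Proz (1.43, diffSplice adjusted p = 0.00343) and 4594565 of Cfi (1.00, diffSplice adjusted p = 0.0272) were likewise dim, at mean WT intensities of 170, 76.2 and 130. When single arrays were left out, 4836556 of C3 was not called without WT replicate 1 or 3 or SRSF3HKO replicate 1 (highest diffSplice adjusted p = 0.386), 4663360 of Proz without WT replicate 1 or 3 (0.0785 and 0.130), 4594565 of Cfi without any WT array or SRSF3HKO replicate 1 or 3 (highest 0.399), and 5408234 of C9 without any WT array or SRSF3HKO replicate 1 or 2 (highest 0.386). Probe sets 4877213 and 5284925 of C3 and 4478007 of C9 were called in all of these fits. The pseudocount of 16 understates the change of such dim probe sets. With a splicing index computed on each array none of the 8 was called (limma adjusted p from 0.0775 to 0.384), and 24 probe sets (0.0168%) passed on the whole array.

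The 18 probe sets of Masp1 changed by unequal amounts. Through alternative splicing this gene also encodes MASP3 and the non-enzymatic MAp44, besides MASP1. The changes fell into 3 ranges, formed after the values were seen. They were -2.62 to -2.41 in 6 probe sets, -1.55 to -1.14 in 10 and -0.62 to -0.28 in 2. The 6 and the 10 spanned like WT intensities, 495 to 1742 and 724 to 2294. The geometric mean intensity of the 6 over that of the 10 was 0.677, 0.727 and 0.683 in WT and 0.233, 0.198 and 0.521 in SRSF3HKO, so that all SRSF3HKO arrays lay below all WT arrays and replicate 3 lay nearest to WT. Because the ranges were chosen from these values, the ratio was not tested. By diffSplice the 6 were not called (adjusted p from 0.229 to 0.558). Probe set 4867428, the dimmest of the gene, was called for higher usage (intensity 401, 364 and 442 in WT and 528, 233 and 282 in SRSF3HKO, usage change 1.45, diffSplice adjusted p = 0.0192), and was not called when WT replicate 1, 2 or 3 or SRSF3HKO replicate 1 was left out or with a covariate for Y-linked signal (diffSplice adjusted p = 0.254, 0.245, 0.118, 0.247 and 0.101). The positions of the probe sets in the gene were not analysed here, so the ranges are not assigned to exons.

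**Figure D4:**
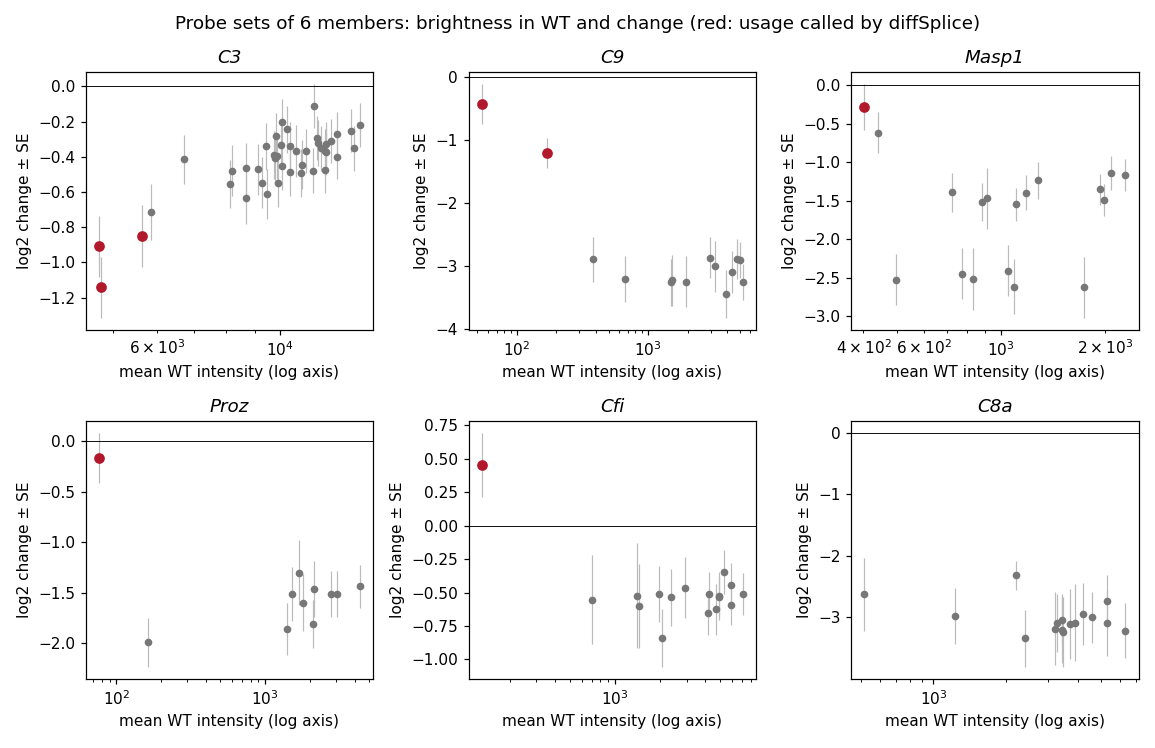
Each tested probe set of C3, C9, Masp1, Proz, Cfi and C8a, with its mean WT intensity on a log axis and its log2 change, SRSF3HKO minus WT (bars are SE, 3 arrays per group); red points are the 8 probe sets called for usage by diffSplice. The red points lie at the dim end of each gene, C8a is drawn as a gene without a call, and the points of Masp1 fall into 3 bands.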

How the data were processed

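The deposited table gives linear PLIER intensities, which the authors normalized with PLIER for core exons, per the labels; the submitters' processing notes also name Affymetrix Expression Console; the background step, any scaling and the versions are not given in the sources used here. Groups are the genotypes in the labels, and replicates were numbered in sample order. Probe sets were named through the annotation supplied with the series: 208397 had 1 gene, 3965 several and 17219 none, and 2124 of 16299 symbols were updated to the current one through RefSeq (GRCm38.p6). Intensities were transformed as log2(value + 16), and gene levels were medians over probe sets of 1 gene. The detection floor was the 90th percentile over 1046 receptor genes for smell, pheromones and taste, 5.35 for genes and 5.63 for probe sets. SRSF3HKO was compared with WT by limma 3.58.1 (lmFit, eBayes with trend) in R 4.3.3. P-values were adjusted by Benjamini-Hochberg over all genes or all probe sets, with a threshold of 0.05. Exon usage was tested with diffSplice where a gene had 3 or more tested probe sets, adjusted over all such genes, and with a per-array splicing index. The members and gene lists were chosen with earlier results of these data known. All measured members are named, with called genes of the other lists. The number of arrays limits the precision. The procedure was tested on simulated data with independent noise for each gene or probe set. Spread shared on an array by the probe sets of a gene was not simulated, so false usage calls from it could not show. Other settings tried were the pseudocount, normalization, probe set summary, filter, eBayes options, array weights, a Y-linked covariate, a threshold of 0.01 and leaving out each array. Figures used Python 3.11.15 and matplotlib 3.10.9.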

Additional observations from a re-analysis of the deposited data

How the results depend on the processing

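Over 18 alternatives the gene-level changes of the 44 members gave 789 values, of which 702 kept direction and side of the threshold, 61 lost a call, 19 gained one and 7 changed sign. The sign changes were those of Cfd (0.031 with median polish, 0.14 with array weights, 0.043 with the Y-linked covariate, from -0.12 to 0.11 leaving out each array) and C6 (from -1.34 to 0.033 leaving out each array), neither of them called in any of these; the cause was not tested. Leaving out each array in turn, the number of coagulation members lower ranged from 1 to 11, of complement members lower from 4 to 11, of complement members higher from 0 to 1, of member probe sets lower from 80 to 290 and higher from 0 to 6, of member probe sets with changed usage from 3 to 15 and of member genes with changed usage from 2 to 9. Over those fits 1.11% to 6.58% of all tested genes were lower. Shares over all tested probe sets at the alternative settings, and over all genes at an adjusted p under 0.01, are not given here. The counts without such a share describe only how the member calls depend on the setting. Coagulation members lower numbered 3 with the Y-linked covariate, beside 2.59% of all tested genes lower. At an adjusted p under 0.01 coagulation members lower numbered 2 and complement members lower 4. With array weights 1 complement member (C1qc) and 5 member probe sets were higher. Member probe sets lower numbered 126 with the covariate and 93 at an adjusted p under 0.01. Member probe sets higher numbered 0 with quantile normalization, median centring, the covariate or an adjusted p under 0.01, and 1 without the filter or with one at the median of all genes. Changed usage was found in 5 probe sets and 3 genes with the covariate and, likewise, in 5 and 3 at an adjusted p under 0.01, and in 0 probe sets with the splicing index. Leaving out each array, the median change ranged from -0.68 to -0.50 for coagulation and from -0.94 to -0.60 for complement, and the other alternatives lay within these ranges. The eBayes trend does not enter diffSplice, so usage has no value for that alternative. No paired analysis was possible because the labels give the groups no shared replicate numbers. The 6 arrays limit which small changes can pass, and changes of probe sets near the floor are understated.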
